A study of Mus musculus with 17 samples.

Results

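The 6 genes described here, Gzmc, Gzmd, Gzme, Gzmf, Gzmg and Gzmn, encode granzymes C, D, E, F, G and N and lie side by side on mouse chromosome 14. They were taken from the 55450 genes of the count table by gene symbol in Gencode vM21, and all 6 were found. The set was chosen by measured values of these same tumors: Gzmf, Gzmg and Gzmd were among the genes with the largest increase from d6 to d10 in untreated tumors. That increase is therefore described below without a test. Granzymes C to G had a mean of at least 1 normalized CPM over the 17 tumors, whereas Gzmn stayed near the limit of detection.

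RNA was sequenced from tumors that grew in the peritoneum of female BALB/c mice, 8 weeks old, after injection of 100000 AB12 cells, a murine mesothelioma line. Untreated tumors were collected on d6 (early phase, n = 3), d10 (intermediate phase, n = 5) and d14 (advanced phase, n = 3). Tumors of mice given 200 µg of anti-CTLA4 antibody (clone 9D9) into the peritoneum were collected on d10 (n = 3) and d14 (n = 3). All mice carried AB12 tumors, so no tumor-free tissue is part of the comparisons. Each library came from a separate mouse. The treated d14 mice received the antibody on d6 and d10 according to the results text of the paper, and the injection days of the treated d10 mice are not given by the labels.

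Granzymes are serine proteases that cytotoxic T cells and NK cells store in secretory granules and deliver into target cells through pores made by perforin. Granzymes A and B are the abundant and best studied members. Granzymes C to G exist as a rodent expansion beside granzyme B, are known from T cells after prolonged stimulation in culture and from NK cells of the pregnant uterus, and, apart from granzyme C, have few known substrates. Granzyme N is known mainly from testis. The pro-enzymes are activated by cathepsin C, and granzyme B is inhibited inside cells by Serpinb9.

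In GRCm38 the members occupied chr14:56117626-56234656, a stretch of 117031 bases that held no other protein coding gene. All 6 were on the minus strand in the order Gzme, Gzmd, Gzmg, Gzmn, Gzmf and Gzmc, with Ctsg (cathepsin G) on one side and Gzmb on the other. Gzme lay at chr14:56117626-56120625, Gzmd at chr14:56129556-56132608, Gzmg at chr14:56156582-56159579, Gzmn at chr14:56165797-56174599, Gzmf at chr14:56205263-56211417 and Gzmc at chr14:56231441-56234656. Each had 5 annotated exons except Gzmn with 6, and reads were counted over all exons of a gene. Coding sequences were 93.3% identical between Gzmd and Gzme, 89.5% between Gzme and Gzmg and 83.6% between Gzmd and Gzmf. Gzmc was the most distant of granzymes C to G, with 71.5% to 73.4% identity to Gzmd, Gzme, Gzmf and Gzmg, and was closer to Gzmb (76.2%) than to any of them. The longest coding stretch shared by Gzmd and Gzme, 96 bases long, is shown because a read of 75 bases that lies inside it cannot by itself be given to either gene.

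Gzmd and Gzme: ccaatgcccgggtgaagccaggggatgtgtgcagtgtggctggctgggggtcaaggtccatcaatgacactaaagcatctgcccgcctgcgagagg

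Counts in the deposited table came from uniquely mapped reads, so read pairs that lie wholly in such stretches were not counted. Reads were paired, of 75 or 100 bases. Of all 75-base windows of the transcript, 94.3% were unique to Gzmd, 95.2% to Gzme, 93.2% to Gzmg, 90.5% to Gzmf, 98.5% to Gzmn and all to Gzmc. At 100 bases the share was 99.8% for Gzmd and Gzmg, 93.3% for Gzmf and 100% for the other 3. For Gzmf the shared windows belonged to Gm4022, an antisense gene on the opposite strand that overlaps Gzmf and Gzmn. Gm4022 itself stayed between 0 and 0.557 normalized CPM in the 17 tumors. Whether counting used strand is not given in the sources used here, so reads of Gm4022 and of Gzmf cannot be told apart by strand. No window of Gzmn was shared with Gm4022.

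Gzmf was the member with the largest increase, Gzmc the member whose time course departed from the others and Gzmn the member that was barely detected. Upstream sequences of these 3 members are shown. They end just before the annotated transcript start and were read from RefSeq promoter records on GRCm38.p6, minus strand, at chr14:56211418-56211657, chr14:56234658-56234907 and chr14:56174600-56174849. Capitals mark the RUNX core TGTGGT on either strand and the cyclic AMP response element TGACGTCA.

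Gzmf: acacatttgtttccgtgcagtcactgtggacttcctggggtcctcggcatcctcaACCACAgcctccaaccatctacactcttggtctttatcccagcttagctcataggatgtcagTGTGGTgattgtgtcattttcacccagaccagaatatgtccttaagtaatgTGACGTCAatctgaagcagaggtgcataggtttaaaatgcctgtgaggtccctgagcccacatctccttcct

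Gzmc: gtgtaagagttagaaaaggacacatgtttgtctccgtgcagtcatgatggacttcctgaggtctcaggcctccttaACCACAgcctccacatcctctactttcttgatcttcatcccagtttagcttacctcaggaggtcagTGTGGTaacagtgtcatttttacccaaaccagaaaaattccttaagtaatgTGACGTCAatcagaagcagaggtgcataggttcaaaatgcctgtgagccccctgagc

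Gzmn: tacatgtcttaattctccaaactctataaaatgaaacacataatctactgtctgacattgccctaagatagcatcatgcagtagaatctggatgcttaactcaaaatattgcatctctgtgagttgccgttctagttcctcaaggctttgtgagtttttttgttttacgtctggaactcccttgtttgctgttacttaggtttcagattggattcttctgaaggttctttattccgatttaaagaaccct

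The RUNX core occurred 2 times in the upstream sequence of each of Gzmc, Gzmd, Gzme, Gzmf and Gzmg and never upstream of Gzmn. These sequences were 250 bases long, except 235 for Gzmd and 240 for Gzmf. At least 2 occurrences were found in 1.26% of the 27025 promoters searched, and at least 1 in 14.2%. The first bases of the matches were 62 bases apart in Gzmd, Gzme, Gzmf and Gzmg and 66 in Gzmc. Gzmb also held 2 matches, 59 bases apart. TGACGTCA was present upstream of Gzmc, Gzmf and Gzmg and of 1.62% of all promoters, and the letters TGANTCA (AP-1), TTCNNNGAA (STAT) and AGGTGTGA (T-box), searched on both strands, were found upstream of none of the 6 and of 6.87%, 7.18% and 1.14% of all promoters. Upstream identity was 94.8% between Gzmd and Gzme and 70.2% to 82.2% for the other pairs of Gzmc to Gzmg. The RUNX matches of these 5 genes are therefore not independent occurrences. For Gzmn against the other 5, upstream identity was between 44.8% and 48.9%.

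Across groups, granzymes C to G were lowest in untreated d6 tumors and highest in treated tumors. Normalized CPM, which are counts scaled to a library of 1000000 counts after adjusting each library total by its TMM factor, are given for each tumor in replicate order. Gzmf measured 0.445, 0.322 and 0.202 CPM in untreated d6 tumors, 154, 333, 189, 35.9 and 192 CPM in untreated d10 tumors and 244, 185 and 139 CPM in untreated d14 tumors. In treated tumors it measured 356, 248 and 310 CPM on d10 and 433, 435 and 403 CPM on d14. The d6 tumors did not overlap with any other group, untreated d10 and d14 tumors overlapped, and treated d14 tumors were above all others. Behind the d6 values were only 10 to 20 counts per library, so Gzmf was close to absent there but detected in each tumor.

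Gzmg measured 1.58, 2.56 and 0.526 CPM in untreated d6 tumors, 182, 380, 254, 28.2 and 248 CPM in untreated d10 tumors and 238, 189 and 148 CPM in untreated d14 tumors. Treated tumors held 538, 360 and 450 CPM on d10 and 566, 561 and 473 CPM on d14. The treated d10 tumors overlapped both with untreated d10 and with treated d14 tumors. Gzmd measured 3.40, 5.20 and 1.66 CPM on d6, 152, 292, 208, 35.2 and 214 CPM on d10 and 212, 175 and 127 CPM on d14 without treatment, against 380, 281 and 324 CPM on d10 and 415, 466 and 354 CPM on d14 with treatment. It followed the same order of groups as Gzmg. Gzme, the closest relative of Gzmd in sequence, measured 1.05 to 2.78 CPM on d6, 13.5 to 86.0 CPM on d10 and 44.8 to 70.4 CPM on d14 without treatment, and 83.4 to 111 CPM on d10 and 121 to 154 CPM on d14 with treatment.

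Gzmc, the member with the best described cytotoxic activity, had another order of groups. It measured 26.5, 35.3 and 19.1 CPM in untreated d6 tumors, 128, 210, 148, 35.0 and 163 CPM in untreated d10 tumors and 71.5, 55.5 and 42.7 CPM in untreated d14 tumors. Treated tumors held 310, 191 and 237 CPM on d10 and 175, 165 and 152 CPM on d14. Gzmc was thus the member with its highest mean in treated d10 tumors, 246 CPM ± 59.7 (SD, n = 3), and these did not overlap with treated d14 tumors.

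Gzmn had counts of 0, 1 and 0 on d6, 15, 19, 11, 3 and 9 on d10 and 9, 22 and 8 on d14 without treatment, and 34, 13 and 26 on d10 and 51, 46 and 25 on d14 with treatment. Every tumor after d6 held at least 3 counts, and none reached 1 CPM. Against a floor of 3 counts per d6 library, its mean level was at least 2.98-fold higher on d10 and at least 2.58-fold higher on d14 without treatment, and at least 5.17-fold and at least 6.79-fold higher in treated d10 and d14 tumors.

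**Figure D1:**
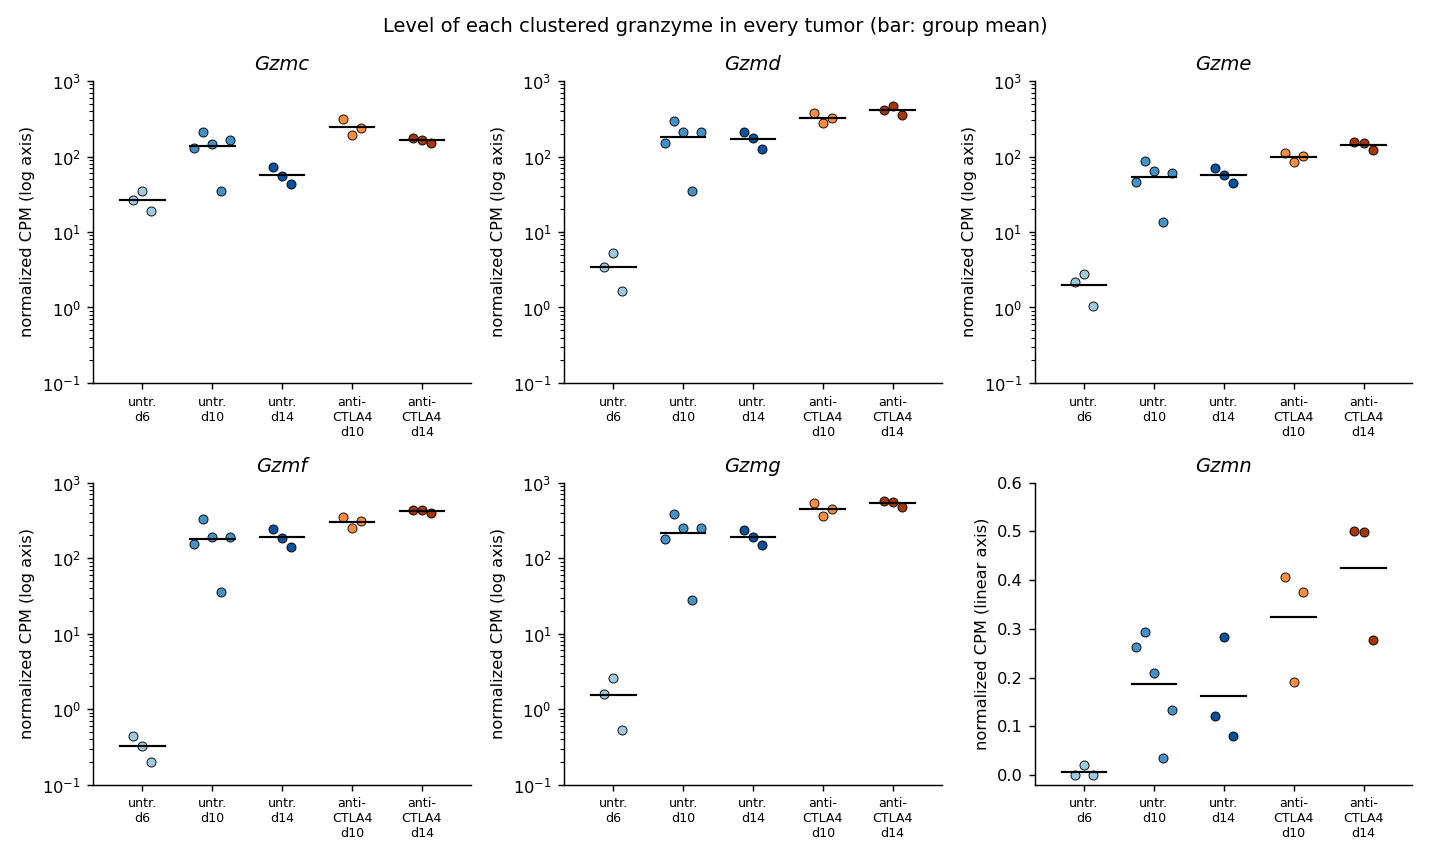
Normalized CPM of each member in every tumor (points) by group, with the group mean as a bar, on a log axis for Gzmc to Gzmg and a linear axis for Gzmn. Gzmf rises from 0.202 to 0.445 CPM in the 3 untreated d6 tumors to 403 to 435 CPM in treated d14 tumors, and replicate 4 of the untreated d10 tumors lies below the other 4 for each member.

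One untreated d10 tumor, replicate 4, stood apart from the other 4 for each member, at 28.2 CPM of Gzmg against 182 to 380 CPM and at 35.0 CPM of Gzmc against 128 to 210 CPM. The same tumor had the highest Cd8a of its group, 78.3 CPM against 56.8 to 69.0 CPM, and the lowest perforin (Prf1) level of its group, 133 CPM. Its Gzmb level was 235 CPM, also the lowest of the group, and its library was the deepest of the group. Comparisons with untreated d10 tumors were therefore also made without it. Library totals over all groups ranged from 46371577 to 96759833 counts with a median of 72413343. Mir6236, a microRNA gene outside the set, was at 69.2, 191 and 115 CPM in untreated d10 replicates 1 to 3. It was at 2.06 and 2.10 CPM in replicates 4 and 5 and at 0.0503 to 0.258 CPM in untreated d14 tumors. Untreated d6 tumors held 75.3 to 94.7 CPM of it, treated d10 tumors 2.97 to 18.2 CPM and treated d14 tumors 0.188 to 0.260 CPM. Over all genes, chi-square per gene between replicates 1 to 3 and replicates 4 and 5 was 169 to 268, against 40.4 to 89.8 within these parts. Replicates 4 and 5 thus stood apart from the other 3, no label names the reason, and comparisons were also made with either part alone. The paper removed genes with a batch effect between sequencing projects, and no label gives the project of a tumor. The part of sequencing project in differences between groups was not tested.

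A comparison without the tumors behind the choice of genes is that of treated and untreated d14 tumors, which asks whether antibody treatment altered the level of these granzymes in advanced tumors. Gzmc, Gzmd, Gzme, Gzmf and Gzmg rose in treated tumors, by 2.29-fold (Gzmf) to 2.96-fold (Gzmc), and Gzmn showed a log2 fold change of 1.45 that did not pass the test. The 5 called members compare with 9.07% of 18062 genes called higher in this comparison, and the median log2 fold change was 1.40 over the 6 members and -0.0043 over all genes tested. A gene was called when the edgeR quasi-likelihood test gave an adjusted p below 0.05 and the fold change exceeded 2.

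Treated and untreated d14 tumors did not overlap for Gzmc, Gzmd, Gzme, Gzmf or Gzmg. The share of all genes without overlap was not computed, so nothing is read from this. Of the 18062 genes, 8199 had an unadjusted p below 0.05 in the edgeR test of these groups. In the edgeR quasi-likelihood test the log2 fold change of Gzmc was 1.57 ± 0.18 (SE, adjusted p = 0.0044), that of Gzmg 1.51 ± 0.17 (adjusted p = 0.0044) and that of Gzmf 1.19 ± 0.19 (adjusted p = 0.0062). That of Gzmn was 1.45 ± 0.48 with an adjusted p of 0.052 by the same test. Only Gzmc and Gzme remained called when all 5 groups shared one fit, in which Gzmd, Gzmf and Gzmg kept log2 fold changes of 1.27, 1.16 and 1.48 with adjusted p between 0.067 and 0.076 by edgeR.

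Other cytotoxic genes rose beside them. Of the 4 other granzymes tested, Gzma (1.24), Gzmb (1.54) and Gzmk (1.39) were called higher on the log2 scale, as were 3 of 9 granule partners, namely Prf1 (1.21), Nkg7 and Ctsw. For the ratios of Gzmc, Gzmd, Gzme, Gzmf and Gzmg to Gzmb, which overlapped between treated and untreated d14 tumors, the log2 difference lay between -0.32 (Gzmf) and 0.05 (Gzmc), with exact permutation p values of 0.3 to 1. With 3 tumors against 3 the smallest two-sided p is 0.1.

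T cell transcripts also differed. The summed level of 5 T cell markers was 64.8 to 116 CPM in untreated and 168 to 189 CPM in treated d14 tumors, with 1 of the 5 called higher (Cd6), and 1 of 2 CD8 markers (Cd8b1) and 3 of 3 CD4 and regulatory T cell markers (Cd4, Foxp3 and Il2ra) were called higher. None of the 6 NK and innate lymphoid markers tested and none of 8 mast cell and basophil markers were called by edgeR. The 9 listed NK and innate lymphoid markers summed to 5.16 to 8.63 CPM in untreated and 8.92 to 12.6 CPM in treated d14 tumors. The 8 mast cell and basophil markers summed to 38.7 to 48.8 CPM in untreated and 58.0 to 66.2 CPM in treated tumors. Of 8 mesothelial markers tested Lrrn4 and Wt1 were called higher. Summed mesothelial markers, which mark the lineage of the AB12 line, were 2766 to 2836 CPM in untreated and 1882 to 2096 CPM in treated d14 tumors. In bulk tumor RNA, fewer cells of a type and less RNA per cell cannot be told apart. The part of T cell, NK cell or mast cell abundance in the higher granzyme levels was not tested.

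**Figure D2:**
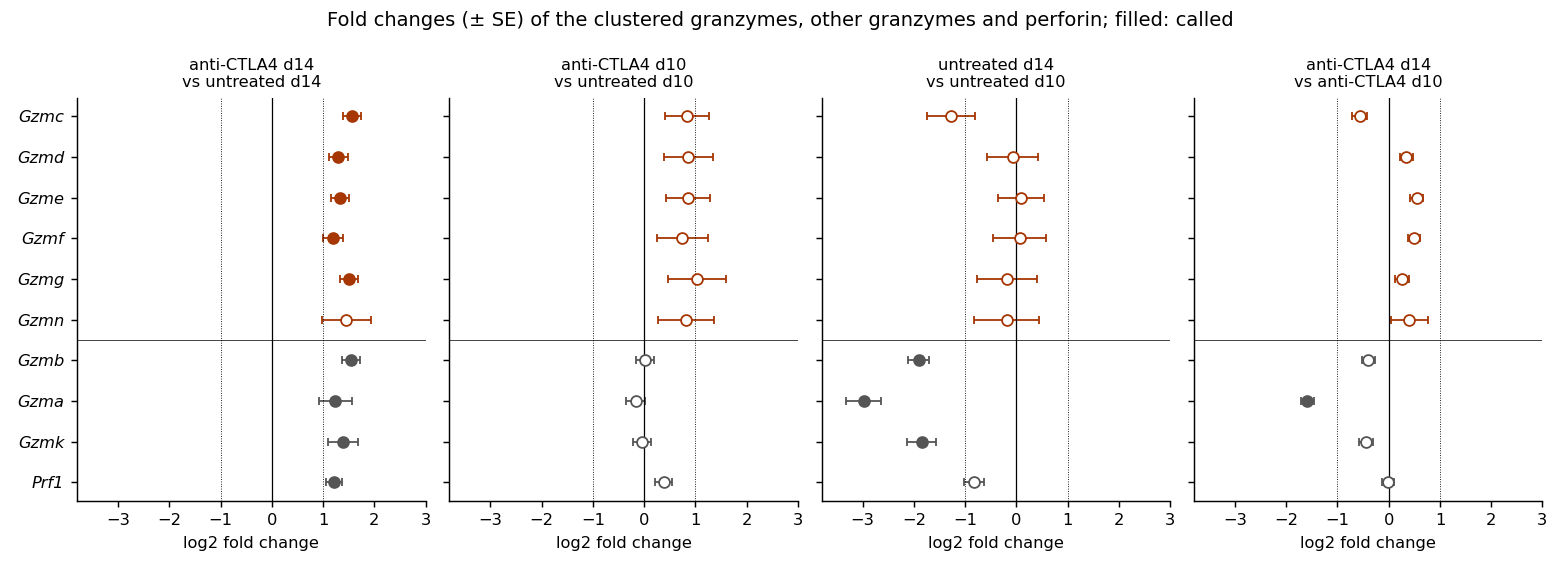
Log2 fold change (points) with SE (bars) of the 6 members, above the line, and of Gzmb, Gzma, Gzmk and Prf1, below it, in 4 comparisons, with filled points for called genes and dotted lines at a fold change of 2. In treated against untreated d14 tumors 5 members and all 4 other genes are called higher, whereas in untreated d14 against d10 tumors Gzmb, Gzma and Gzmk are called lower and no member is called.

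Within treated tumors, d14 was compared with d10 to follow the granzymes over time under the antibody. No member passed the call rule in either direction, against 11.5% of 17791 genes. By adjusted p alone, which 46.6% of all genes passed, Gzme rose by 0.55 ± 0.13 (SE, adjusted p = 0.0080) and Gzmf by 0.49 ± 0.12 (adjusted p = 0.0088) on the log2 scale, while Gzmc fell by 0.57 on the same scale (SE 0.15, adjusted p = 0.014), all by edgeR. Gzmd (0.34 ± 0.13), Gzmg (0.27 ± 0.14) and Gzmn (0.40 ± 0.37) had positive log2 fold changes with edgeR adjusted p of 0.052, 0.14 and 0.39. Gzmc, which did not overlap between the days, therefore moved in the direction opposite to Gzme and Gzmf. Gzma was the one other granzyme called, at -1.59 on the log2 scale. No granule partner, T cell or CD8 marker was called. Foxp3 was called higher, 1 of 3 CD4 and regulatory T cell markers. In the list of 8 mast cell and basophil markers, Mcpt8 and Ms4a2 were called higher. Log2 fold changes ran from -0.46 to 1.35 over that list. Of 8 mesothelial markers tested Lrrn4, Upk3b and Wt1 were called higher and Krt19 lower, and their summed level was 2891 to 3750 CPM on d10 and 1882 to 2096 CPM on d14. The part of these shifts in the granzyme levels was not tested. Gzmb and Gzmk had log2 fold changes of -0.40 and -0.44.

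In untreated tumors, d14 was compared with d10. The untreated d10 tumors took part in the choice of the genes, and their values enter this comparison too. No member was called, whereas 7.23% of 17659 genes were called in either direction and 3.45% were called lower. Gzmd (-0.07 ± 0.50), Gzme (0.09 ± 0.45), Gzmf (0.07 ± 0.52), Gzmg (-0.19 ± 0.59) and Gzmn (-0.19 ± 0.64) had log2 fold changes within one SE of 0, and their d14 tumors overlapped with d10 tumors. Gzmc had a log2 fold change of -1.28 ± 0.46 with an edgeR adjusted p of 0.077. Without untreated d10 replicate 4 the change of Gzmc was -1.53 ± 0.22 and was called (edgeR adjusted p = 0.0078), and DESeq2 called it with all 5 tumors (-1.27, adjusted p = 0.014). It was -1.51 (edgeR adjusted p = 0.0024) against untreated d10 replicates 1 to 3 alone and -0.83 (edgeR adjusted p = 0.29) against replicates 4 and 5 alone.

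Gzmb, Gzma and Gzmk fell by 1.91, 2.98 and 1.85 on the log2 scale and were called lower, and Gzmm was not called. Of 9 granule partners Cst7, Ctsw and Nkg7 were called lower, and Prf1 had a log2 fold change of -0.83 with an edgeR adjusted p of 0.017 that did not reach a fold change of 2. Ctsc, which encodes the activating protease cathepsin C, was called lower (-1.03), as were the T cell markers Cd3d and Trac, the CD8 marker Cd8b1, Cd4 and the NK markers Klra3, Klrb1c and Ncr1. The summed level of 9 NK and innate lymphoid markers was 10.1 to 17.4 CPM on d10 and 5.16 to 8.63 CPM on d14, and that of the 5 T cell markers was 157 to 198 CPM on d10 and 64.8 to 116 CPM on d14. None of the 8 genes of the mast cell and basophil list and none of the 8 mesothelial markers tested was called, while the mast cell proteases Mcpt1 and Mcpt2, listed as locus neighbours, were called lower. The part of these cell types in the granzyme levels was not tested.

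Ratios of the members to Gzmb in each tumor are given as a description, since they were chosen after these values were seen and the untreated d10 tumors were part of the choice of genes. The ratio of Gzmf to Gzmb was 0.00155 to 0.00353 in untreated d6 tumors, 0.153 to 0.898 on d10 and 1.79 to 2.73 on d14, and in treated tumors 0.908 to 1.01 on d10 and 1.57 to 2.02 on d14. From untreated d10 to d14 the ratio to Gzmb was 4.71-fold higher for Gzmf, 4.58-fold higher for Gzme, 4.26-fold higher for Gzmg and 4.25-fold higher for Gzmd, without overlap between the groups. For Gzmc the ratio was 1.75-fold higher with overlap. The smallest adjusted p of the 36 ratio comparisons computed was 0.099 (exact permutation tests). The smallest two-sided p is 0.036 for 3 tumors against 5 and 0.1 for 3 against 3, so none could pass correction. Nothing is concluded from these p values. Without untreated d10 replicate 4 the log2 difference for Gzmf moved from 2.24 to 1.82 and that for Gzmg from 2.09 to 1.55. Gzmb itself was 3.76-fold lower on untreated d14 than on d10. The ratio of Prf1 to Gzmb was 0.418 to 0.660 on untreated d10 and 1.03 to 1.27 on d14. Relative to Prf1, Gzmc, Gzmd, Gzmf and Gzmg overlapped between these groups and Gzme did not. Gzmf per Prf1 was 0.270 to 1.63 on d10 and 1.41 to 2.65 on d14. Gzme per Prf1 was 0.102 to 0.420 and 0.455 to 0.818. Ratios to Prf1 were not tested.

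Ratios of Gzmc to the other 4 abundant members, likewise chosen after the values were seen, are also given as a description. The ratio of Gzmc to Gzmf was 0.630 to 0.975 in untreated d10 tumors and 0.293 to 0.308 in untreated d14 tumors, and 0.765 to 0.869 and 0.377 to 0.405 in treated d10 and d14 tumors. Over untreated tumors the log2 difference of d14 against d10 was -1.28 for the ratio to Gzmd, -1.39 to Gzme, -1.43 to Gzmf and -1.28 to Gzmg, each without overlap. Over treated tumors, which share no library with the untreated ones, it was -0.89, -1.09, -1.05 and -0.82, again without overlap. Each had an adjusted p of 0.14 (exact permutation tests), which could not have passed with 3 tumors against 3.

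**Figure D3:**
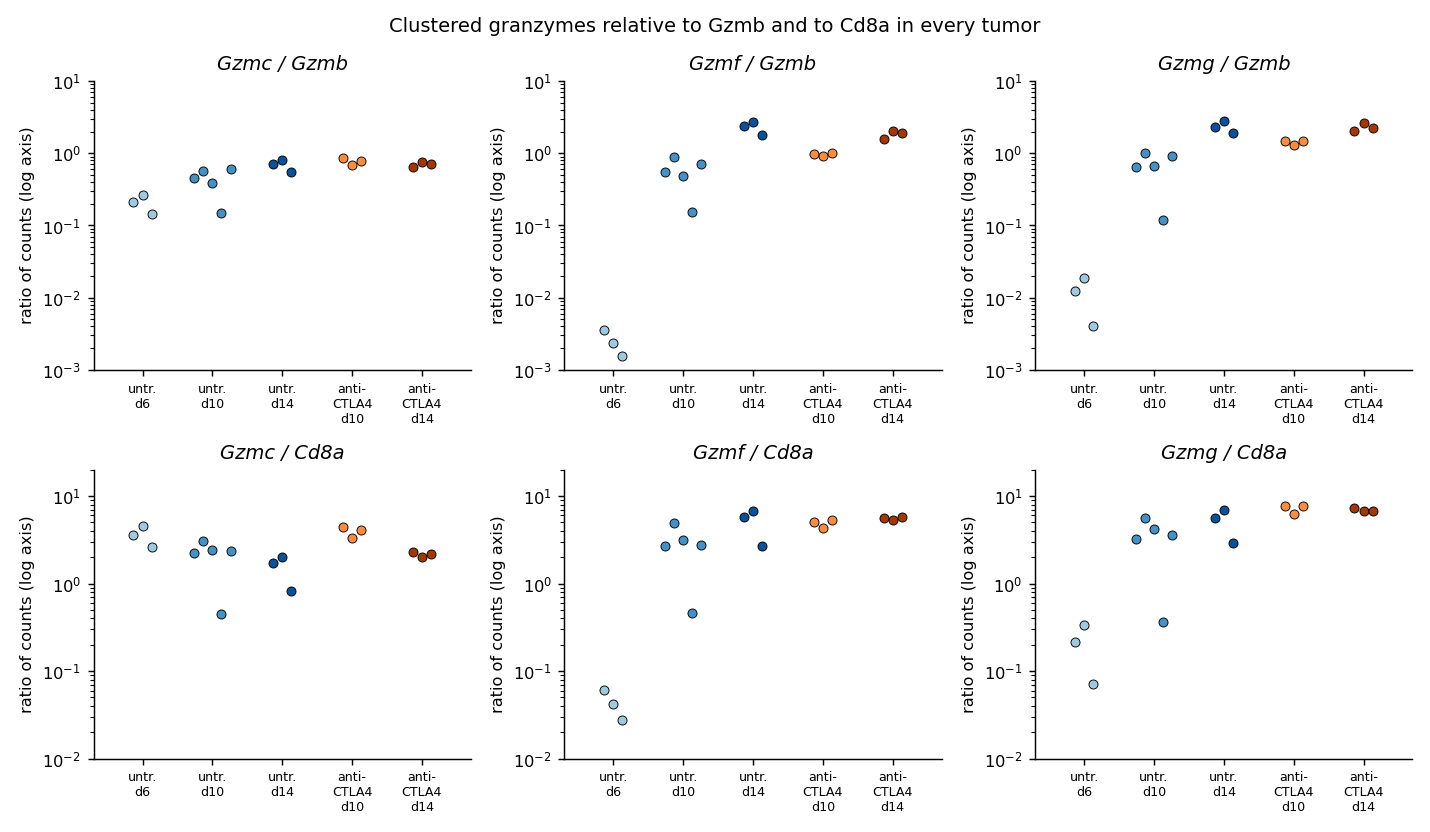
Ratio of Gzmc, Gzmf and Gzmg to Gzmb (top) and to Cd8a (bottom) in every tumor, on log axes. The ratio of Gzmf to Gzmb lies between 0.00155 and 0.00353 on d6 and between 1.79 and 2.73 in untreated d14 tumors, and Gzmc per Cd8a in untreated d6 tumors, 2.60 to 4.60, overlaps with untreated d10 and treated d10 tumors.

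Expressed per kilobase of merged exons, so that genes of different length can be compared, the summed level of the 6 members was 37.9 CPM per kb ± 13.0 (SD, n = 3) in untreated d6 tumors, 836 ± 455 (n = 5) on d10 and 721 ± 181 (n = 3) on d14. In treated tumors it was 1549 ± 290 (n = 3) on d10 and 1813 ± 162 (n = 3) on d14. Gzmc made up 80.4% ± 4.34 (SD) of this sum on d6, 19.6% ± 3.00 on d10 and 8.77% ± 0.091 on d14 without treatment. With treatment it made up 17.6% ± 1.01 on d10 and 10.1% ± 0.469 on d14. The d10 and d14 groups did not overlap in the share of Gzmc, and the treated d14 tumors (9.59% to 10.4%) lay above the untreated d14 tumors (8.67% to 8.84%).

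Gzmf made up 0.950% ± 0.304 of the sum on d6 and 23.4% ± 1.59, 28.4% ± 0.812, 21.4% ± 0.407 and 25.5% ± 1.24 in untreated d10, untreated d14, treated d10 and treated d14 tumors. Gzmg was the largest component after d6, at 27.0% ± 4.38 and 29.4% ± 0.562 in untreated d10 and d14 tumors and 31.8% ± 0.413 and 32.3% ± 0.531 in treated d10 and d14 tumors. Gzme contributed 5.59% to 8.74% in the group means, and Gzmn at most 0.0400% in any tumor. Untreated d10 replicate 4 had the highest share of Gzmc (24.4%) and the lowest of Gzmg (19.3%) of its group.

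**Figure D4:**
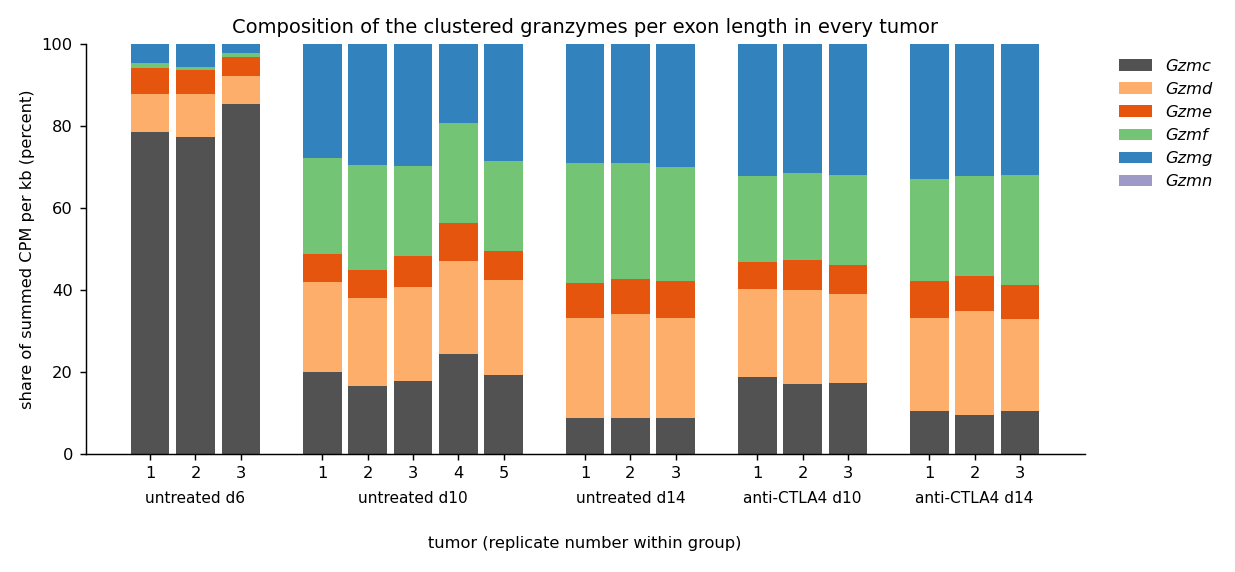
Share of each member in the summed CPM per kb of the 6 members, one bar per tumor, grouped by condition. Gzmc takes 77.3% to 85.3% of the sum in untreated d6 tumors, 16.6% to 24.4% in untreated d10 and 8.67% to 8.84% in untreated d14 tumors, and Gzmn is too rare to be seen.

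On d10, treated tumors were compared with untreated tumors of the same day, which again include the tumors behind the choice of genes. No member was called, and only 3 of 17258 genes (0.0174%) were called at all by edgeR, with 2329 genes at an unadjusted p below 0.05 and 223 genes called by DESeq2. The log2 fold changes of the members were all positive, from 0.75 ± 0.50 (Gzmf) to 1.04 ± 0.57 (Gzmg), with edgeR adjusted p of 0.41 to 0.52. Without untreated d10 replicate 4 they were smaller, from 0.48 for Gzmf to 0.75 for Gzmg. Gzmb (0.02 ± 0.18) and Gzma (-0.16 ± 0.19) had log2 fold changes within one SE of 0, and no gene of the lists of granzymes, granule partners, cytokines, receptors, transcription factors or cell type markers was called. The ratio of Gzmg to Gzmb was 2.62-fold higher in treated d10 tumors without overlap, given as a description.

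The difference between the treatment effect on d14 and that on d10 was tested directly as an interaction. No member was called, against 11.8% of 18574 genes, and the log2 differences of the members lay between 0.42 (Gzmd) and 0.71 (Gzmc) with SEs of 0.57 to 0.80 and edgeR adjusted p of 0.42 to 0.72. Gzmb (1.51 ± 0.27), Gzma (1.40 ± 0.39) and Gzmk (1.41 ± 0.35) were called in the same fit. A larger effect of treatment on d14 than on d10 was thus not detected for the members with the spread of the untreated d10 tumors.

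Treated d14 tumors were also set against untreated d10 tumors, in which Gzmb is high. Gzme was the one member called higher (1.35 ± 0.43, edgeR adjusted p = 0.042), against 5.34% of 18057 genes, and the other members had log2 fold changes of 0.22 (Gzmc) to 1.25 (Gzmg). The call of Gzme was lost when any of 5 single tumors was left out, namely untreated d10 replicate 1 or 5 or any of the 3 treated d14 tumors. The log2 fold change of Gzmb was -0.44 and that of Gzma -1.81 in this comparison, and Gzma was called lower.

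Relative to untreated d6 tumors, levels are given as a description only, since these tumors took part in the choice of genes. In untreated d10 tumors the fitted fold difference was 5.19 for Gzmc, 27.6 for Gzme, 53.8 for Gzmd, 143 for Gzmg and 571 for Gzmf, and all 6 members were past the call limits, as were 4.79% of 16866 genes, from which nothing is read because these values chose the genes. In untreated d14 tumors it was 2.13 for Gzmc, 29.2 for Gzme, 50.9 for Gzmd, 125 for Gzmg and 597 for Gzmf. The 5 members fitted there were past the limits, as were 10.2% of 17172 genes, and Gzmn was removed by the filter on low counts. In treated d10 tumors the values ran from 9.19 for Gzmc to 952 for Gzmf, and all 6 were past the limits, as were 7.50% of 16741 genes. These 3 comparisons share the same d6 tumors, which were part of the choice, so their counts are no support for a difference. Gzmb showed log2 differences of 1.27, -0.64 and 1.27 in them, and Gzma 0.54, -2.45 and 0.36. The summed level of the 5 T cell markers was 157 to 198 CPM in untreated d10 tumors against 42.1 to 47.5 CPM on d6, and their part in the difference was not tested.

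Per count of Cd8a, a chain of the CD8 co-receptor, granzymes D to G had higher mean counts in later groups than on d6. Gzmd and Gzme overlapped between untreated d6 tumors (0.227 to 0.677 and 0.144 to 0.362) and untreated d10 replicate 4 (0.450 and 0.172). Gzmg per Cd8a was 0.0718 to 0.333 in untreated d6 and 0.360 to 5.55 in untreated d10 tumors. Gzmf per Cd8a was 0.0276 to 0.0610 in untreated d6 tumors, 0.459 to 4.87 on d10 and 2.70 to 6.72 on d14, and 4.30 to 5.34 and 5.31 to 5.71 in treated d10 and d14 tumors. Gzmc per Cd8a was 2.60 to 4.60 on d6, 0.447 to 3.07 on d10 and 0.832 to 2.01 on d14 without treatment, and 3.31 to 4.44 and 2.01 to 2.29 in treated d10 and d14 tumors. Relative to the sum of Cd3d, Cd3e and Cd3g, Gzmc was 0.683 to 1.28 on d6, 0.256 to 1.61 on d10 and 0.532 to 1.17 on d14 without treatment, and 1.83 to 2.47 and 1.28 to 1.39 in treated d10 and d14 tumors. Gzmb per Cd8a was highest on d6, at 17.3 to 17.8, against 3.00 to 6.36 and 1.51 to 2.47 in untreated d10 and d14 tumors. The ratios are descriptions, since Cd8a is not restricted to the cells that hold these granzymes.

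Genes around this family were taken from fixed lists. Of the 9 neighbours in the granzyme and mast cell protease locus, 7 could be tested. In treated against untreated d14 tumors Ctsg and Gzmb were called higher, and in untreated d14 against d10 tumors Gzmb, Mcpt1 and Mcpt2 were called lower. Of 4 intracellular serpins none was called in those comparisons or in treated d14 against d10 tumors, and Serpinb9, the granzyme B inhibitor, was 400 to 498 CPM in untreated d6 tumors against 187 to 238 CPM in untreated d10 tumors.

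Among the cytokines that feed cytotoxic lymphocytes, Il12a and Il21 were called higher of 4 tested in treated d14 tumors against untreated d14 tumors (2.54 and 2.34 on the log2 scale), and Il12a, Il12b and Il21 of 5 tested in treated d14 against treated d10 tumors. These 3 transcripts were rare and stayed below 1 CPM in every tumor. In untreated d14 tumors Il12a was 0.0387 to 0.161 CPM and Il21 0.0302 to 0.148 CPM. Treated d14 tumors held 0.298 to 0.942 CPM of Il12a and 0.265 to 0.444 CPM of Il21. Of 11 receptors and signal transducers tested, Il12rb2, Il21r, Il2ra and Il2rb were called higher in treated d14 against untreated d14 tumors, and Il21r, Il2rb and Il2rg were called lower in untreated d14 against d10 tumors. Among 8 transcription factors of effector T cells, Irf4 and Tbx21 were called higher in the former comparison, and Batf and Tbx21 were called lower in the latter. Runx3, whose family binds the RUNX core, had log2 fold changes of 0.92 and -0.31 in these comparisons and was called in neither.

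Granzymes D to G had nearly the same profile across the 17 tumors. Pearson correlations of log2(CPM + 1) lay between 0.988 and 0.9995 among Gzmd, Gzme, Gzmf and Gzmg and between 0.828 and 0.873 for Gzmc against each of them. The points share the 5 groups, and the low d6 tumors weigh on each value, so no p is given. Among 12373 other protein coding genes with a mean of at least 1 CPM, the 10 most alike to the mean of granzymes C to G by Pearson correlation were Dsc2 (0.973), Havcr2 (0.959), Dmkn (0.958), Klrc1 (0.958), Rhov (0.957), Adam8 (0.954), Tnfrsf9 (0.951), Wnt10b (0.945), Sytl2 (0.945) and Eepd1 (0.945). Of these, Havcr2 encodes the checkpoint receptor TIM-3, Klrc1 the receptor NKG2A, Tnfrsf9 the costimulator 4-1BB and Sytl2 a protein of granule exocytosis. Dsc2, a desmosomal cadherin, was 0.182 to 0.282 CPM in untreated d6 tumors and 13.0 to 14.9 CPM in treated d14 tumors.

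By Spearman correlation 3 of these 10 (Dsc2, Adam8 and Sytl2) were again among the first 10, and Prf1 joined them. Prf1 had a Pearson correlation of 0.924 (rank 24 of 12373), Cd8a of 0.906 (rank 38) and Cd3g of 0.896 (rank 56), over the same 17 tumors. Gzmb had a correlation of 0.464 (rank 2909) and Gzma of -0.136 (rank 6877).

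**Figure D5:**
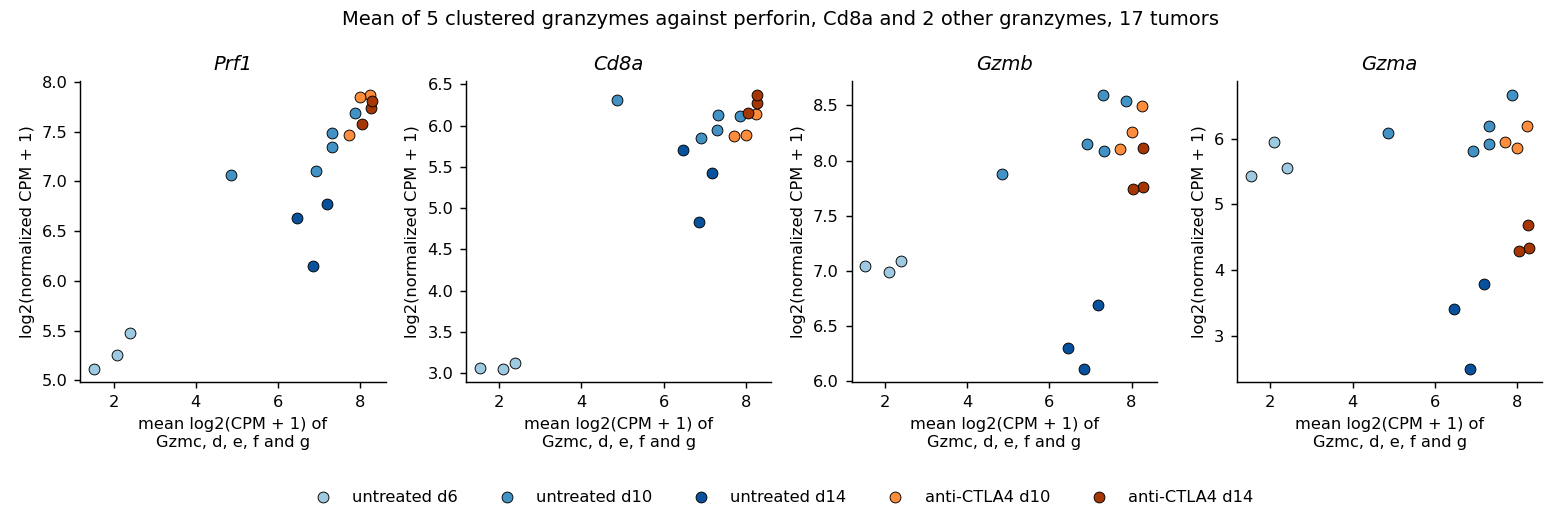
Mean log2(CPM + 1) of Gzmc, Gzmd, Gzme, Gzmf and Gzmg (horizontal axis) against log2(CPM + 1) of Prf1, Cd8a, Gzmb and Gzma (vertical axes) in 17 tumors, one point per tumor. The Pearson correlation with the mean of the members is 0.924 for Prf1, 0.464 for Gzmb and -0.136 for Gzma. Prf1, Cd8a, Gzmb and Gzma are each lower in untreated d14 than in untreated d10 tumors, although the clustered granzymes of these groups overlap. Prf1 measures 69.7 to 108 CPM in untreated d14 and 133 to 205 CPM in untreated d10 tumors.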

How the data were processed

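Tumor RNA of 17 mice was sequenced by the authors with the KAPA RNA HyperPrep kit. The authors aligned reads to GRCm38 (mm10) with TopHat2 2.0.14, kept uniquely mapped reads and counted them per Gencode vM21 gene with HTSeq, and the deposited values are these raw counts. Sample labels gave groups and replicate numbers, and library totals (46371577 to 96759833 counts) set the precision for rare transcripts. The p-values set the difference between groups against the spread between tumors of a group. Sequencing project is not labelled, so its differences within or between groups could not be told apart from those of mouse, day or treatment.

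Counts were tested in R 4.3.3 with edgeR 4.0.16 (filterByExpr with a minimum count of 10, TMM, quasi-likelihood test, only the groups compared in each fit), with Benjamini-Hochberg adjustment over all genes tested, and the SE is the log2 fold change over the square root of F. For ratios per tumor, scipy 1.17.1 gave exact permutation p-values (two-sided). Scripts were tested on simulated data. By rule, all 6 members were named in every comparison, with called genes of 14 lists (85 genes in all, described where the comparisons are main ones) and the 10 most alike genes by Pearson correlation. The members and lists were chosen with earlier results of these data known. Alternatives were DESeq2 1.42.0, scaling by library total alone, no low count filter, counts thinned to the smallest library, all 5 groups in one fit, each tumor left out in turn, the replicate number as a block, parts of the untreated d10 group, Cd8b1 in place of Cd8a, coding in place of exon length, and Spearman correlation. Ratios to Gzmb and between members were added after the values were seen, and these and the ratios to Prf1 are descriptions. The instrument of each library was not used here.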

Additional observations from a re-analysis of the deposited data

Results flagged for a closer look

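In the untreated d10 group, replicate 4 lay far below the other 4 tumors for Gzmc (35.0 CPM) and Gzmg (28.2 CPM). On the log2 scale the gap to the nearest tumor took 0.725 of the range for Gzmc and 0.716 for Gzmg, above the critical value of 0.71 for 5 tumors in Dixon's test. On the linear scale the gaps took 0.534 and 0.437 of the range and passed no limit, and on the log2 scale Gzmd, Gzme, Gzmf and Gzmn were below the limit (0.690, 0.658, 0.652 and 0.631). Chance flags about 1 in 20 groups, and the 6 genes are not independent of each other. The cause was not tested.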

How the results depend on the processing

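The counts of called members kept their values, to within 1.5 times, under every alternative for 6 of the 9 comparisons. For untreated d14 against untreated d10 tumors the count moved from 0 to 1 with DESeq2, with no low count filter, with all 5 groups in one fit, with the replicate block and with untreated d10 replicates 1 to 3 only, the called gene being Gzmc each time (-1.27, -1.28, -1.28, -1.52 and -1.51), and was 0 to 1 when single tumors were left out. For treated against untreated d14 tumors it moved from 5 to 2 with all 5 groups in one fit and was 5 to 6 when single tumors were left out. For treated d14 against untreated d10 tumors it moved from 1 to 4 with all 5 groups in one fit, to 2 with the replicate block and to 3 with untreated d10 replicates 4 and 5 only, and was 0 to 2 when single tumors were left out. The cause was not tested.

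Sign changes arose only for members that were not called. In untreated d14 against d10 tumors Gzme and Gzmf were -0.16 and -0.21 with the replicate block and -0.18 and -0.24 with untreated d10 replicates 1 to 3 only, and Gzmd and Gzmg were 0.44 and 0.46 with replicates 4 and 5 only. Leaving out single tumors gave ranges of -0.34 to 0.17 (Gzmd), -0.16 to 0.32 (Gzme), -0.20 to 0.40 (Gzmf), -0.47 to 0.11 (Gzmg) and -0.87 to 0.15 (Gzmn). In treated d14 against untreated d10 tumors Gzmc was -0.013 with replicates 1 to 3 only and -0.027 to 0.41 with single tumors left out. In the interaction, untreated d10 replicates 4 and 5 alone gave -0.094 (Gzmd), -0.058 (Gzme), -0.22 (Gzmf), -0.19 (Gzmg) and -0.54 (Gzmn).

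Over all genes, treated against untreated d10 tumors gave 3 calls, against 223 with DESeq2, 0 without TMM, 40 with no low count filter, 77 with all 5 groups, 0 after thinning, 1210 with the replicate block, 1152 with untreated d10 replicates 1 to 3 only, 96 with replicates 4 and 5 only and 0 to 115 with single tumors left out. Untreated d14 against d10 moved from 1277 to 2001 (all 5 groups), 1969 (replicates 1 to 3 only) and as low as 281 (without untreated d14 replicate 2). Untreated d10 against d6 moved from 1257 to 2794 (replicates 4 and 5 only) and as low as 810 (without untreated d6 replicate 1). Treated d14 against untreated d10 moved from 1414 to 2361 (replicate block), 2271 (replicates 1 to 3 only), 2202 (replicates 4 and 5 only) and as low as 588 (without treated d14 replicate 2). Treated against untreated d14 fell from 2072 to as low as 1172 (without treated d14 replicate 1), and the interaction from 2196 to as low as 1315 (without untreated d14 replicate 2). Same-numbered tumors of different groups did not deviate together (correlations of -0.30 to 0.23), so the replicate numbers name tumors only. Depth limits Gzmn, with at most 51 counts in any tumor. With Cd8b1 in place of Cd8a, the log2 ratio of treated d14 over untreated d6 tumors moved from -0.75 to -0.28 for Gzmc and from 3.56 to 4.01 for Gzmd. From untreated d10 to d14 the direction for Gzmc depended on the reference. Its mean per Cd8a was 2.12 on d10 and 1.52 on d14, and per Cd8b1 3.23 and 3.69, with overlap under both. Gzmd, Gzme, Gzmf and Gzmg had higher means on d14 under both.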
